A study of Mus musculus with 6 samples.

Results

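The ATF4 ChIP-seq peak list of leucine-fed GCN2 KO mouse embryonic fibroblasts (MEFs) was compared with that of leucine-fed WT MEFs to describe which basal ATF4 sites were listed with and without GCN2. A WT +Leu peak and a GCN2 KO +Leu peak were taken as the same site when their centers lay 300 bp or less apart on the same chromosome. There were 4850 peaks with GCN2 and 3566 without it, together 8416 of the 17462 peaks in the 4 lists of the series. By this rule 93 WT +Leu peaks were matched and 4757 were WT only, while 94 GCN2 KO +Leu peaks were matched and 3472 were GCN2 KO only. The counts of matched peaks differ by 1 because a pair of GCN2 KO peaks in the ribosomal RNA gene Rn45s lay near a single WT peak.

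The cells were primary MEFs of strain 129S6/SvEvTac, either Wild-type or GCN2 KO, kept in complete DMEM for 24 h (+Leu) or in DMEM without leucine for 24 h (-Leu). ATF4-bound chromatin was precipitated with antibody sc-200. Chromatin of independent experiments was pooled before sequencing, so each condition is 1 library, no condition has a replicate check and no test between genotypes was made. Peaks were called against input chromatin of the same genotype. The lists do not show the deletion itself: no list held a peak assigned to Eif2ak4, the gene of GCN2, or to Atf4.

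GCN2 is a protein kinase that is activated when uncharged tRNA accumulates, and it phosphorylates the translation initiation factor eIF2α. This slows general protein synthesis but favors translation of the mRNA of ATF4, a basic leucine zipper (bZIP) factor that activates genes for amino acid synthesis, amino acid uptake, tRNA charging and stress control, the integrated stress response. Other eIF2α kinases respond to ER stress, viral RNA or heme lack, and ATF4 mRNA is also controlled through mTORC1. ATF4 often pairs with a C/EBP factor on a composite element, the C/EBP-ATF response element.

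The 8-base core searched for this element was TGATGCAA (strict core) or TGATGNAA with any base at N (relaxed core, which includes the strict one), on both strands. Within the listed peak windows, 13 of the 15 matched sites that ranked highest in both lists held a core (Arl14ep and Psat1 did not), as did 14 of the 15 WT-only peaks with the highest scores (Rere did not). The sequences below were chosen among those with a core, to show it in both classes. They are from the mouse reference genome GRCm38 (mm10), not from the reads of the 129S6/SvEvTac cells, and each is written 5′ to 3′ on the strand named, with the core in capitals. Those of matched sites come first.
Chac1: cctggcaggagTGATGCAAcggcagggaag (chr2:119351038-119351067, minus strand)
Ubr2: aggctggctgcTGATGCAAcctcagagcta (chr17:46995103-46995132, plus strand)
Klhdc4: ccccatcagcaTGATGCAAtatttgcttct (chr8:121851213-121851242, minus strand)
Asns: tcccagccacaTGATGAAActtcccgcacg (chr6:7693214-7693243, minus strand)
Slc7a5: gatctggctagTGATGCAAtctgccagcct (chr8:121898584-121898613, minus strand)
Shmt2: agctatggagaTGATGCAAccgagcctcag (chr10:127521946-127521975, minus strand)
Kdm6b: tctggcctccaTGATGCAAtgcactgcaag (chr11:69414536-69414565, plus strand)
Those of WT-only sites follow.
Ddit4: cctcgcctgaaTGATGAAAccccatatggc (chr10:59952867-59952896, minus strand)
Rbm20: tgtactaagcaTGATGCAAttatgtggttt (chr19:53732116-53732145, plus strand)
Clic4: ctgttttcacaTGATGCAAccttttggccg (chr4:135271658-135271687, minus strand)
Gpt2: tatggctgggaTGATGAAActcaaggcgaa (chr8:85492199-85492228, plus strand)
Slit3: ggtggagggagTGATGCAActcggggctaa (chr11:35156839-35156868, minus strand)
Cars: cttccagaatcTGATGCAAccgcggcgccg (chr7:143600045-143600074, plus strand)
Of the 15 GCN2 KO-only peaks with the highest scores, 1 in multicopy sequence was not searched, and of the others the one near Wdfy3 alone held a core.
Wdfy3: gcctggctggcTGATGAAAtcccacatctc (chr5:101999167-101999196, minus strand)

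Most listed peaks of either genotype had no partner in the other. The share of WT +Leu peaks that was matched came to 1.92%, with a 95% Wilson interval of 1.57 to 2.34, and that of GCN2 KO +Leu peaks to 2.64% (2.16 to 3.21), the background against which every smaller set below is read. Intervals here and below cover counting error only, since the lists do not give the depth of the libraries. Where a pair was found it was usually close: the median gap between centers was 42 bp, 75 gaps were within 100 bp and 7 were over 200 bp.

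The matched share depended on the score, the value that the peak caller gave each peak. Scores ran from 13 to 1499 in the WT +Leu list (median 30) and from 13 to 391 in the GCN2 KO +Leu list (median 29). The scale of the score is not given in the sources used here. It may be logarithmic, since the lowest score, 13, is the whole part of -10 times the log10 of the caller's threshold of 0.05, so scores are set side by side and ranked, and no fold of binding is read from them. A score of 100 or more was held by 90 WT peaks and by 32 GCN2 KO peaks. Of these strong peaks, 45 of 90 (50.0%) were matched in the WT list and 29 of 32 (90.6%) in the GCN2 KO list. At this score nearly all GCN2 KO peaks were therefore peaks of the WT list too, whereas 45 WT peaks were missing from the GCN2 KO list. The same cutoff takes unequal numbers of peaks, because the scores of the lists are not on a common scale. With equal numbers taken the lists were closer: 29 of the 50 strongest WT peaks and 32 of the 50 strongest GCN2 KO peaks were matched. Of the 100 strongest, 47 WT and 40 GCN2 KO peaks were matched.

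The 15 strongest WT peaks were all matched, and the peak near Ddit4, ranked 16, was the first without a partner. Between ranks 21 and 50 of the WT list 10 of 30 peaks were matched, between ranks 51 and 100 18 of 50, between ranks 101 and 200 7 of 100, and below rank 1000 27 of 3850 (0.701%). In the GCN2 KO list the 20 strongest peaks were all matched, followed by 12 of 30, 8 of 50 and 4 of 100 in the same bands. With each list cut into 10 equal bands by score, the highest band was matched at 12.2% (59 of 485 WT peaks) and 14.8% (53 of 357 GCN2 KO peaks), and the lower bands at 0% to 2.52%. In the lists of leucine-starved cells 81 of 6374 WT peaks (1.27%) were matched in GCN2 KO.

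**Figure D1:**
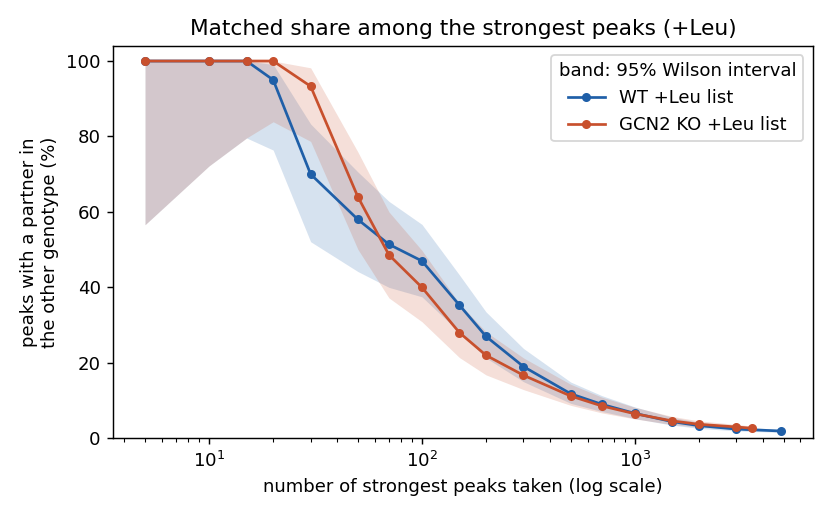
Share of peaks with a partner in the other genotype (%, y axis) among the strongest peaks of each list (number of peaks taken, log x axis), WT +Leu in blue and GCN2 KO +Leu in red, with 95% Wilson bands. Both curves start at 100%, reach 47 of 100 (WT) and 40 of 100 (GCN2 KO) at the 100 strongest peaks, and end at 1.92% and 2.64%.

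The sites listed at high rank in both genotypes lay at genes of the integrated stress response and of amino acid metabolism. Chac1, which encodes a glutathione-degrading enzyme, held the top peak of both lists, with a score of 1499 in WT and 391 in GCN2 KO, at -231 bp from its transcription start site (TSS, negative values being upstream). The next 2 sites were an intron of the ubiquitin ligase gene Ubr2, 15388 bp inside the gene (1209 in WT, 387 in GCN2 KO), and an intergenic site at -21665 bp from Klhdc4 (1409 in WT, 328 in GCN2 KO). These 3 peaks took ranks 1 to 3 of both lists.

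Atf5, a bZIP factor of the mitochondrial stress response, had a score of 808 in WT and 228 in GCN2 KO, in an intron of an annotated transcript at -2445 bp from the nearest TSS. Asns, asparagine synthetase, had 746 in WT and 184 in GCN2 KO, at -41 bp from its TSS. Slc7a5, the light chain of the leucine transporter LAT1, had 776 in WT and 148 in GCN2 KO, in intron 1. The enzymes of serine and mitochondrial folate metabolism stood with them: Mthfd2 had 635 in WT and 209 in GCN2 KO, Shmt2 530 and 120, and Psat1 398 and 161. In all of these the WT score was the higher, although each peak was among the 24 strongest of its list in both genotypes.

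The remaining sites among the 15 that ranked highest in both lists differed less between genotypes in some cases. Arl14ep, which encodes an effector of a small GTPase, had a promoter peak of 390 in WT and 297 in GCN2 KO. An intergenic CpG-rich site at -31447 bp from Creb3l1, a membrane-bound bZIP factor, had 295 in WT and 262 in GCN2 KO. Kdm6b, a histone demethylase, had 187 and 128, and Sars, seryl-tRNA synthetase, 211 and 123. The sites nearest to Serpinh1, the collagen chaperone HSP47, and to the predicted gene Gm5627 had 476 and 142, and 319 and 143.

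Across all 93 matched sites the score was higher in WT at 62 (66.7%), lower at 29 and equal at 2. Scores of separately called libraries are not on a common scale, so the percentile rank within each list was set beside them: it was higher in WT at 51 sites, lower at 41 and equal at 1. Among the 49 sites at or above the 90th percentile of both lists, 40 had the higher score in WT but 28 had the higher percentile. Thus the difference in score was general among the strong sites, and the order of the sites within a list was not lower in GCN2 KO as a rule. Whether depth or enrichment set the scale of the scores was not tested.

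**Figure D2:**
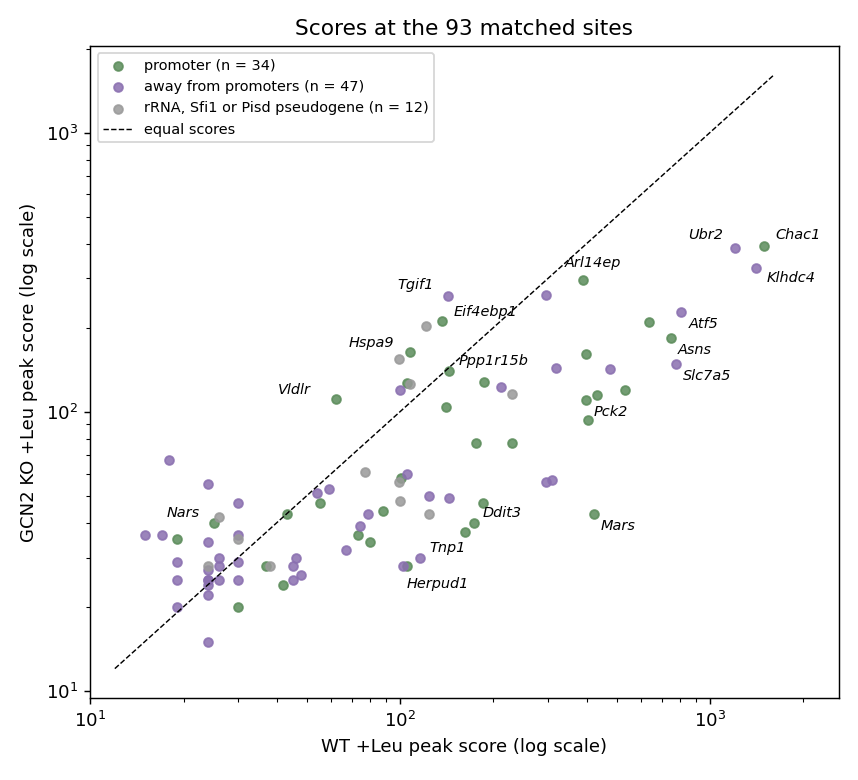
Peak score in GCN2 KO +Leu (y axis, log scale) against WT +Leu (x axis, log scale) at the 93 matched sites, each point 1 site, colored by whether it lay at a promoter, away from promoters or in multicopy sequence, with a dashed line at equal scores. Chac1, Ubr2 and Klhdc4 lie farthest to the right, Mars lies well below the line, and 62 of the 93 points lie below it.

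Of these 49 sites, Mars, methionyl-tRNA synthetase, stood the most percentile points lower in GCN2 KO (7.3). Its 5′ UTR peak scored 422 in WT and 43 in GCN2 KO and went from rank 11 to rank 268. Also among the 49, intergenic sites near Capg and Tbc1d31 (chosen after their values were seen) had 309 and 57, and 295 and 56. The promoter of Ddit3, which encodes the stress factor CHOP, was outside the 49, at percentile 99.2 in WT and 87.6 in GCN2 KO. Its scores were 173 and 40, and its difference of 11.5 percentile points was larger than that of Mars.

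The 9 sites strong in both lists that had the higher score in GCN2 KO were few but included genes of translational control. Eif4ebp1, which encodes the translation repressor 4E-BP1, had 137 in WT and 211 in GCN2 KO in intron 1, and so moved from rank 55 in WT to rank 8 in GCN2 KO. The promoter of Vldlr, a lipoprotein receptor, had 62 in WT and 111 in GCN2 KO. Hspa9, the mitochondrial Hsp70 chaperone, had 108 and 163 at its promoter, and Eif1, a factor of start codon selection, 105 and 127. Among the others were a DNA transposon near Tgif1 (143 and 259), the Sfi1 promoter (121 and 202), a ribosomal RNA repeat near Axin2 (108 and 126) and a Pisd-ps3 site (99 and 154). Apart from Eif4ebp1 and Vldlr, these genes were chosen after their values were seen. The last 3 named belong to the 12 matched sites in multicopy sequence, namely ribosomal RNA, Sfi1 and the Pisd pseudogenes, where short reads can fit several places. Without those 12 sites the score was higher in WT at 56 of 81 matched sites (69.1%). Of the sites named here, those at Eif4ebp1, Vldlr, Hspa9 and Pisd-ps3 were not listed in leucine-starved GCN2 KO cells. The sites at Tgif1 (353), Sfi1 (190), Axin2 (146) and Eif1 (20) were.

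Shifts of rank were compared among the matched sites above the 90th percentile of at least 1 list. On the WT side, the Herpud1 promoter (an ER-associated degradation gene) stood at percentile 98.5 with a score of 105 in WT and at percentile 44.3 with 28 in GCN2 KO. Sites near N4bp2l1 (102 and 28), Akna (48 and 26), Tnp1 (116 and 30) and Egfem1 (46 and 30) were shifted the same way, by 31.4 to 54.0 percentile points. Of these 5 sites all but the one near Egfem1 were also listed in leucine-starved WT cells. On the GCN2 KO side, an exon of Pkd1l3 had 18 in WT and 67 in GCN2 KO, and LINE-1 elements near Aqp4 (24 and 55) and in Slc38a1 (30 and 47) followed. Those 3 sites and the Spz1 site (43 in both) were in neither of the leucine-starved WT and GCN2 KO lists, whereas Vldlr, the fifth in this direction with a difference of -3.3 percentile points (WT minus GCN2 KO), had a score of 318 in leucine-starved WT cells.

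The strongest WT-only peaks included ones at genes of the mTORC1 pathway, amino acid metabolism and tRNA charging, and others in or nearest to different genes. The peak at -1047 bp from Ddit4, which encodes the mTORC1 inhibitor REDD1, had a WT score of 320 and no GCN2 KO partner. Gpt2, the mitochondrial alanine aminotransferase, had a promoter peak of 238, and Cars, cysteinyl-tRNA synthetase, one of 188. The other 12 of the 15 strongest were not at promoters: introns of Rbm20 (291), a splicing regulator, Clic4 (238), Madd (232), Crispld2 (213), Slit3 (194), a guidance ligand, Chst9 (174), 9030204H09Rik (264) and 4930543E12Rik (251), and intergenic sites nearest to Mtx2 (234), Rcc2 (199), Rere (182) and H2afy3 (176). A gene named for a distant site is only the nearest one.

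All 15 of these WT-only peaks were found again in leucine-starved WT cells, 13 of them with a higher score there, such as 569 at Rbm20, 1101 at Slit3 and 536 at Gpt2. Madd (160) and Cars (151) had lower scores without leucine. In leucine-starved GCN2 KO cells 4 of the 15 were listed, at 4930543E12Rik (59), Mtx2 (58), Rcc2 (59) and H2afy3 (76). A site missing from the GCN2 KO +Leu list is one that did not pass the peak caller's threshold in a single library, which is not the same as a site without ATF4.

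The strongest GCN2 KO-only peaks had lower scores than the strongest WT-only ones, although the median score was 29 in both classes. The first was the promoter of Eef1a1, the translation elongation factor, with a score of 127, 59 bp from the TSS and with 70.4% GC. It was followed by Rn45s (120) and a Pisd-ps3 site (108), both in multicopy sequence. Introns of Msi2 (91) and Wdfy3 (91), a site at -16163 bp from Sphk1 (82), and introns of Tmem200c (82) and A430033K04Rik (82) came next. The remainder of the 15, near Unc5cl, Nxpe5, Slc6a12, Pclo, Zfand3, Ly96 and Mir7681, had scores of 71 to 81, and 4 of them lay in LINE-1, LINE-2 or LTR elements. In leucine-starved WT cells 1 of the 15 was found, the Wdfy3 site (246), and in leucine-starved GCN2 KO cells 3, at Eef1a1 (44), Unc5cl (27) and Nxpe5 (32).

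Over all peaks, recurrence in leucine-starved cells, which the match did not use, set the classes apart. Of the 93 matched sites, 66 (71.0%, 61.1 to 79.2) were listed in WT -Leu, 34 (36.6%) in GCN2 KO -Leu, 31 in both and 24 in neither. Of WT-only peaks 242 (5.09%, 4.50 to 5.75) were in WT -Leu and 42 (0.883%) in GCN2 KO -Leu. Of GCN2 KO-only peaks 42 (1.21%, 0.896 to 1.63) were in WT -Leu and 63 (1.81%) in GCN2 KO -Leu. Both lists of a genotype were called against input of that genotype, and the part of this shared control in recurrence was not tested. Both input libraries carry the +Leu label, so the -Leu lists had no input of their own condition.

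Within the WT-only class recurrence followed the score. The 43 strongest WT-only peaks were all in WT -Leu, as were 49 of the first 50, 34 of the next 50, 17 of the following 100 and 99 of the 3757 beyond order 1000 (2.64%). Of the 50 strongest GCN2 KO-only peaks, 3 were in WT -Leu and 5 in GCN2 KO -Leu. The same was seen from the matched side: of the 49 sites at or above the 90th percentile in both lists 47 were in WT -Leu, and of the 29 sites under it in both lists 10 were.

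**Figure D3:**
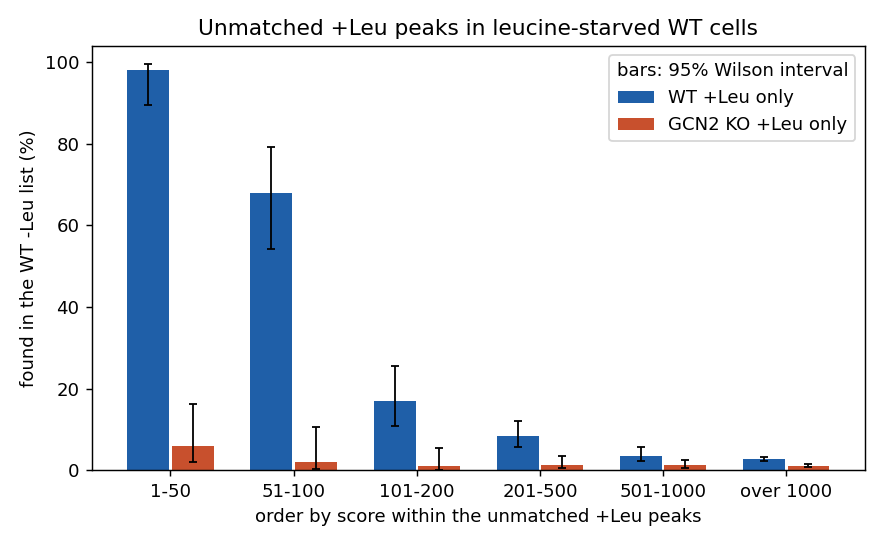
Share of unmatched +Leu peaks found in the WT -Leu list (%, y axis) by their order of score within the class (x axis), for WT-only (blue) and GCN2 KO-only peaks (red), with 95% Wilson intervals as black bars. The WT-only share falls from 98.0% in the first 50 to 2.64% beyond order 1000, and the GCN2 KO-only share is 6.0% or less in every band.

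The classes differed in the same way in sequence. The strict core lay within 50 bp of the center in 34 of the 87 matched WT peaks on assembled chromosomes (39.1%, 29.5 to 49.6), in 97 of 4752 WT-only peaks (2.04%, 1.68 to 2.48) and in 9 of 3461 GCN2 KO-only peaks (0.260%, 0.137 to 0.494). In windows of the same width 1 kb to either side of the centers the shares were 0.575%, 0.200% and 0.202%. The GCN2 KO-only share was thus near that of its own surroundings, and the WT-only share was above that of its own. Many of the WT-only peaks with the strict core were strong ones: 45 of the 97 were among the 100 highest scores of the class. With the relaxed core the shares were 51.7%, 3.39% and 1.18%, beside 0.575%, 1.38% and 1.20% in the neighboring windows. Of 32851 RefSeq promoter windows (GRCm38, 250 bases before to 50 after the TSS), 0.895% held the strict and 3.97% the relaxed core. These windows are wider than the 50 bp to either side of a peak center. Their shares are therefore not a like-for-like background for the peaks, whereas the neighboring windows have the same width. The palindrome TGACGTCA, the full cAMP response element, was in 0 of the 87 matched peaks, which allows a share of up to 3.45% by 3 counts of the total (Wilson upper limit 4.23%), and in 3 WT-only and 2 GCN2 KO-only peaks.

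The core did not separate strong WT-only peaks from strong matched ones. Among the 100 strongest WT +Leu peaks 47 were matched (median score 185) and 53 were not (median score 132). The strict core was in 25 of 44 matched peaks (56.8%, 42.2 to 70.3) and in 29 of 53 unmatched peaks (54.7%, 41.5 to 67.3). Both sets were almost always listed in WT -Leu, at 45 of 47 and 52 of 53. They differed in promoter location, held by 24 of 47 matched peaks (51.1%, 37.2 to 64.7) and 9 of 53 unmatched peaks (17.0%, 9.20 to 29.2). They also differed in listing in GCN2 KO -Leu, at 28 of 47 (59.6%) and 7 of 53 (13.2%). That list shares its genotype and input with the list that defined the match. The sets were not equally strong, with highest scores of 1499 (matched) and 320 (unmatched), and the part of score in these differences was not tested. Among the 100 strongest GCN2 KO +Leu peaks the strict core was in 18 of 37 matched and in 2 of 58 unmatched peaks on assembled chromosomes, and promoter location in 21 of 40 and 4 of 60. This view of the strongest peaks was added after the values of the classes were seen.

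Over whole classes, 35 of 93 matched sites lay at promoters (37.6%, 28.5 to 47.8), where a promoter is an annotated promoter or a position within 1 kb of a TSS. The share was 4.54% in WT-only and 4.35% in GCN2 KO-only peaks. The median distance to a TSS was 5125 bp for matched, 26704 bp for WT-only and 26142 bp for GCN2 KO-only peaks, and the median GC content was 55.1%, 51.5% and 52.5%. Repeats were the detailed annotation of 12.9% of matched, 25.6% of WT-only and 22.1% of GCN2 KO-only peaks. Introns and intergenic sequence together made up most peaks of both unmatched classes, at 45.3% and 43.1% for WT only and 44.6% and 41.6% for GCN2 KO only.

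**Figure D4:**
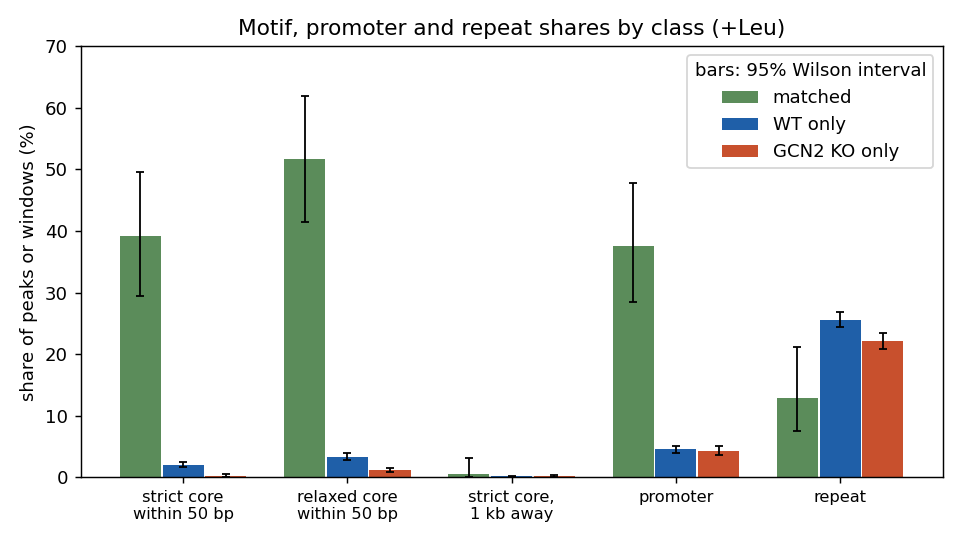
Share of peaks or windows (%, y axis) with the strict core (TGATGCAA) or relaxed core (TGATGNAA) within 50 bp of the center, with the strict core in windows 1 kb away, at a promoter, or annotated as a repeat, for matched (green), WT-only (blue) and GCN2 KO-only peaks (red), with 95% Wilson intervals as black bars. The matched bars are the tallest for both cores and promoters, at 39.1%, 51.7% and 37.6%, and the lowest for repeats, at 12.9%.

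By gene, peaks at 5 kb or less from a TSS named 776 genes in WT and 577 in GCN2 KO. Both lists named 80 genes, which is 6.28% of the 1273 in either list, 10.3% of the WT and 13.9% of the GCN2 KO genes. At 45 of the 80 the peaks were a matched site, and at the others the 2 lists had peaks at different positions of the same gene. Of 245 genes in 9 lists drawn from pathways of ATF4 and of fibroblasts, 60 had a peak in either genotype: 28 in both (46.7% of 60), 28 in WT only (46.7%) and 4 in GCN2 KO only (6.67%). Of all target genes 6.28% were in both, 54.7% in WT only and 39.0% in GCN2 KO only. These shares split genes that have a peak. The lists do not give the share of all annotated genes with a peak. Counts of list members with a peak, here and below, therefore have no such background beside them. The 9 lists were chosen with earlier results of these data known, so their shares are not independent of these peaks. The peaks were a matched site at 26 of the 28 genes in both. At those 28 genes the score of the strongest peak was higher in WT at 24, lower at 3 (Vldlr, Nars and Eif4ebp1) and equal at 1 (Mafg).

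The 28 listed genes with a WT peak only had weaker WT peaks than the genes in both, with a median score of 50.5 beside 180. Here and for the gene lists below, the -Leu lists were looked up by gene, so the -Leu peak need not be at the same site. Of the 15 that scored 50 or more in WT, all were also listed in WT -Leu, and of the 13 under 50, 5 were. In GCN2 KO -Leu 1 of the 28 was listed, Cebpg with a score of 20, while 11 of the 28 genes in both were.

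Among 23 integrated stress response genes, 10 were in both lists, 5 in WT only and none in GCN2 KO only. Besides Chac1, Atf5, Arl14ep, Kdm6b, Ddit3 and Vldlr, the list held Ppp1r15b, the constitutive regulatory subunit of the eIF2α phosphatase, with 144 in WT and 140 in GCN2 KO. Nupr1, a stress-induced chromatin protein, had 176 and 77, and the pseudokinase gene Trib3 had 101 and 58. Bhlha15 had 37 and 20 at different positions. In WT only were Cebpg (103), a bZIP partner of ATF4, the hormone genes Fgf21 (94) and Gdf15 (25), Cebpb (35) and the eIF2α kinase gene Eif2ak1 (30). Cebpg, Fgf21 and Gdf15 were listed in WT -Leu at 559, 233 and 413.

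Of 38 aminoacyl-tRNA synthetase genes, whose enzymes charge tRNA, 8 were in both lists, 4 in WT only and 1 in GCN2 KO only. Yars had 432 in WT and 115 in GCN2 KO, Aars 404 and 93, Iars 185 and 47, and Lars 73 and 36. At Gars the matched promoter site had 88 and 44, and a further WT peak of 119, at 947 bp inside the gene, had no partner. Nars went the other way, with 25 in WT and 40 in GCN2 KO. Cars (188), Eprs (46), Tars (30) and Vars (30) had WT peaks only and Wars (29) a GCN2 KO peak only, and all 5 were listed in WT -Leu.

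Of 24 enzymes of amino acid and one-carbon metabolism, 4 were in both lists and 6 in WT only. The 4 in both were Asns, Mthfd2, Shmt2 and Psat1, described above. In WT only were Gpt2 (238), Phgdh (86), which starts serine synthesis, Mthfd1l (58) and Aldh1l2 (58) of mitochondrial folate metabolism, Bcat1 (50), which transaminates leucine and other branched-chain amino acids, and Cbs (37). Thus Psat1 of the serine pathway was listed in both genotypes and Phgdh of the same pathway in WT only. All but Cbs were listed in WT -Leu, at 112 to 536.

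Of 25 amino acid transporter genes, 3 had peaks within 5 kb in both lists, 5 in WT only and none in GCN2 KO only. The cationic transporter gene Slc7a1 had 229 in WT and 77 in GCN2 KO, Slc38a2, which encodes SNAT2, 80 and 34, and Slc1a4 37 and 28. Slc6a9 (69), Slc38a7 (51), Slc38a4 (30), Slc7a7 (21) and Slc7a6 (13) were in WT only. Slc7a5 is counted in neither group here because its matched peak lies 9073 bp inside the gene.

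Of 25 mTORC1 pathway genes, Eif4ebp1 was in both lists and Ddit4 (320), Larp1 (80) and Sesn2 (54), which encodes a leucine sensor, were in WT only. The Larp1 peak, at the gene for a repressor of terminal oligopyrimidine mRNA translation, lay at -391 bp from the TSS, ranked 122 of 4850 and had a score of 65 in WT -Leu. No GCN2 KO list held a peak assigned to Larp1. Sesn2 scored 646 in WT -Leu.

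The other lists held few peaks. Of 47 bZIP genes, Atf5, Ddit3 and Mafg were in both lists, Mafg with a score of 24 in each but at different positions. In WT only were 6, among them Nfe2l1 (83), Jdp2 (53), Bach1 (36) and Nfil3 (32), and in GCN2 KO only were Mafk (32) and Batf (21). Of 25 ER chaperone and unfolded protein response genes, Herpud1 was in both and Syvn1 (25) in GCN2 KO only. None of 27 autophagy genes had a peak within 5 kb in either list, and of 20 extracellular matrix genes Col6a3 (41) had one in WT only. Without the share of all genes with a peak, these low counts are not read as a lack of ATF4 sites in these lists.

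**Figure D5:**
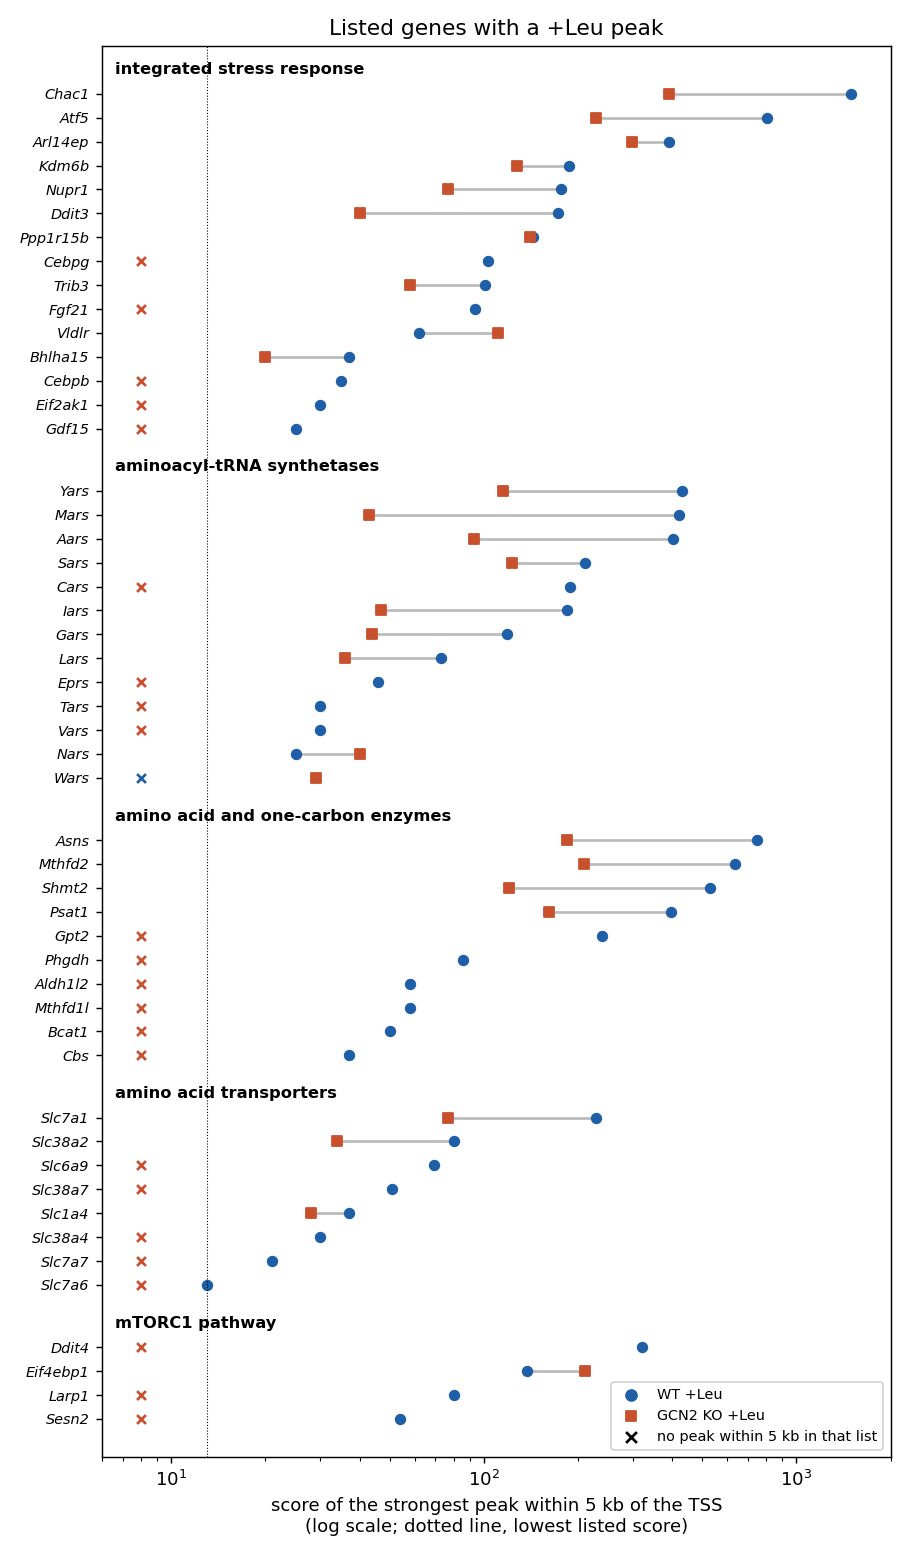
Score of the strongest peak within 5 kb of the TSS (x axis, log scale) for the members of 5 gene lists with a peak in either +Leu list (y axis, 1 gene a line), WT as blue circles and GCN2 KO as red squares joined by a gray line, with a cross where a list had no peak and a dotted line at the lowest listed score, 13. WT circles lie to the right of the squares at most genes in both lists, with Vldlr, Nars and Eif4ebp1 the exceptions, and nearly all crosses are red, Wars being the exception.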

How the data were processed

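ATF4 ChIP-seq had been done in 4 conditions, and 2 input libraries were not analysed here. The authors used fastx for trimming, BWA (version 0.7.12 in the submitters' processing notes) for alignment to mm10, MACS2 (2.1.0) without its shift model to call peaks against same-genotype input (false discovery rate 0.05), and HOMER (4.7) for annotation of summits ±150 bp. The deposited peak score is the caller's and is not normalized between libraries. GC and CpG content were deposited as a fraction, and the distance to the TSS in bp.

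From these lists were computed matches of peak centers, percentile ranks, genes named by peaks 5 kb or less from a TSS, cores in the reference, and shares with 95% Wilson intervals. On assembled chromosomes, GC content equalled that of the GRCm38 reference, within 5e-06 as a fraction, at all 4839 peaks of WT +Leu and all 3549 of GCN2 KO +Leu. The lists give no depth. The matched classes and gene lists were chosen with earlier results of these data known. Named genes were list members with a peak, the 15 matched sites with the highest lower percentile of both lists, the 15 highest unmatched peaks of each genotype and the 5 largest rank shifts each way among sites above the 90th percentile of a list. Others are stated as chosen after their values were seen. Some items are not reported here. Alternatives were other match distances (100 and 1000 bp), a score minimum of 30, lists of equal length, assembled chromosomes only, TSS windows of 1 and 10 kb, and other promoter and core definitions. With 1 library per condition no test was made. The matching and core steps were tested on simulated data. Python 3.11.15, numpy 2.4.6, pandas 2.3.3, scipy 1.17.1, matplotlib 3.10.9, pysam 0.24.0 and samtools 1.23.1 were used.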

Additional observations from a re-analysis of the deposited data

How the results depend on the processing

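Under the alternatives, 47 values stayed within the 95% interval of the value reported (for counts, within 1.5 times it) and 34 moved. The order of the classes (matched, then WT only, then GCN2 KO only) was kept for the core and for recurrence in WT -Leu under every alternative run. With a score minimum of 30 the matched share was 2.51% (WT) and 3.67% (GCN2 KO), the genes in both lists 39, the core share 53.6% (matched) and 3.93% (WT only), the share in WT -Leu 88.5% and 8.20%, and the GCN2 KO-only listed genes 2. With centers 100 bp or less apart the matched shares were 1.55% and 2.1%, and the share in WT -Leu was 4.34% (WT only) and 0.831% (GCN2 KO only). With 1000 bp they were 2.64% and 3.65%, the matched sites' promoter share 28.1%, core share 27.9% and share in WT -Leu 57.8%, and the last 6.04% and 2.33% in the unmatched classes. With WT cut to its strongest peaks, as many as the GCN2 KO list holds, the WT-only core share was 2.73% and the share in WT -Leu 6.11%. With annotated promoters alone the promoter shares were 26.9%, 1.98% and 1.70%. The relaxed core gave 51.7%, 3.39% and 1.18%, and the strict core within 150 bp gave 3.22% (WT only) and 0.751% (GCN2 KO only). A TSS window of 1 kb gave 37 genes in both lists and 18 WT-only listed genes, and one of 10 kb gave 145 and, of GCN2 KO-only listed genes, 7. Percentiles in place of scores put 54.8% of matched sites higher in WT. Leaving out the multicopy sites was chosen after seeing the data.

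No paired analysis was possible because there was 1 pooled library per condition and the labels carry no replicate numbers. Depth is unknown, so a peak listed in 1 genotype cannot be told apart from one just under the caller's threshold in the other.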
